A study of Drosophila melanogaster with 16 samples.

Results

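Body-wall muscle of tumour-bearing Drosophila larvae was compared between the Mid and the Early stage of a high-sugar diet (HSD), in 4 HSD Mid libraries and 4 HSD Early libraries out of 16 libraries in the series. The sample labels place HSD Mid at day 14 and HSD Early at day 12, and these labels alone chose the libraries. Every animal carried ras1G12V;csk-/- tumours, in which oncogenic Ras1 was expressed and the Src inhibitor Csk was lost in clones of the eye epithelia made with an eyeless recombinase, so the muscle was not the tissue targeted by the tumour genotype. Both groups were fed 1.0 M sucrose. The other libraries, 4 of HSD Late animals at day 16 and 4 of animals on a control diet (CD, 0.15 M sucrose) at day 8, shared the tumour genotype and entered the fit to share its estimate of spread. Each library was made from RNA of pooled dissected tissue. The labels do not say whether the pools came from separate cultures, so the p-values measure the spread between these libraries. Stage and age changed together between the groups and cannot be told apart. For muscle staining, the study's methods give an earlier day for the Early stage than the labels do.

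Larval body-wall muscles are large fibres with many nuclei, in which myosin thick filaments slide along actin thin filaments anchored at Z-discs. Troponin and calcium switch contraction on, and glycolysis and the mitochondrial respiratory chain supply its ATP. The fibres attach to the cuticle through epidermal tendon cells, so a dissected body wall also holds epidermis, trachea, nerve endings and haemocytes. Growing tumours are known to make such muscle waste, and the comparison asks what changed in its RNA as HSD animals passed from the Early to the Mid stage.

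HSD Mid muscle held a smaller share of RNA for the respiratory chain, glycolysis, the tricarboxylic acid (TCA) cycle, the sarcomere and the larval cuticle, and a larger share for a small set of genes that included Hsp83, Mkp3 and dl. In edgeR's quasi-likelihood test with Benjamini-Hochberg adjustment over all 11607 tested genes, 243 genes had an adjusted p under 0.05 and are called changed here, which is 2.09% of those tested. Of these, 32 rose (0.276% of tested genes) and 211 fell (1.82%). The libraries of both stages did not overlap for 30 of the genes that rose and 208 of those that fell. Without regard to the test, the stages did not overlap for 495 genes higher in HSD Mid (4.26%) and 780 lower (6.72%). The falls were also the larger changes, with 54 genes lower by over 4-fold and 2 higher by over 4-fold. Levels are given as CPM, the counts of a gene per 1000000 counts of its library, scaled by the trimmed mean of M-values (TMM). They compare a gene between libraries, not genes with each other.

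**Figure D1:**
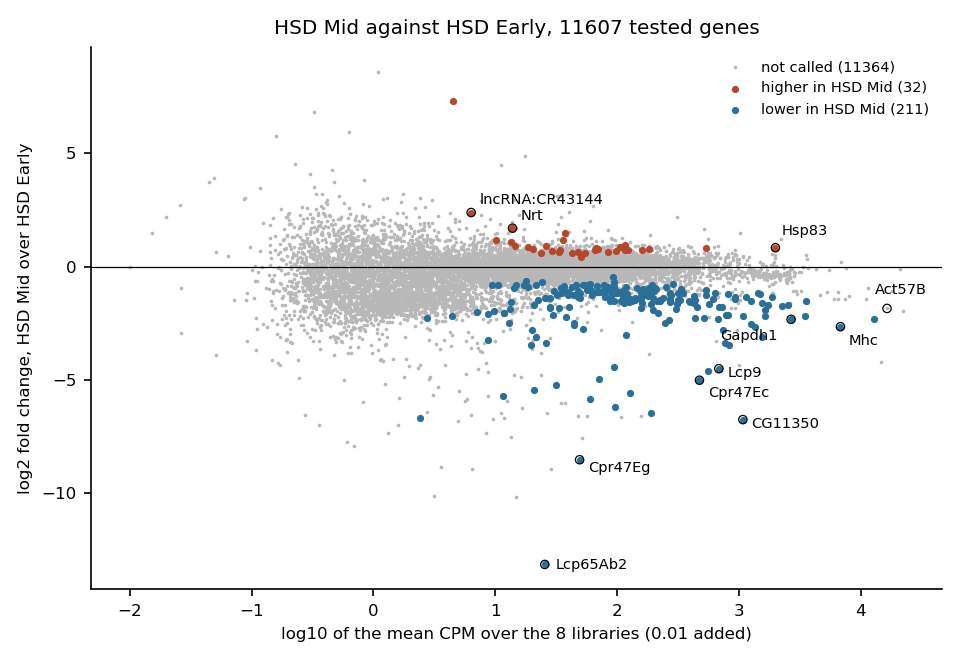
Each point is 1 of 11607 tested genes, with the log10 of its mean CPM over the 8 libraries on the x axis and its log2 fold change of HSD Mid over HSD Early on the y axis. The 211 genes called lower (blue) reach further from 0 than the 32 called higher (red), and the value of Lcp65Ab2 is a fitted one that depends on a prior count, since no HSD Mid library held a read of it.

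These calls lay close to the threshold. The smallest adjusted p was 0.0287, and the spread between libraries was wide, with a common biological coefficient of variation of 0.613. All 243 genes kept their direction when any 1 of the 8 libraries was left out. This adds little, since 238 of them did not overlap between the stages, so leaving out 1 library could hardly turn them. However, the same test called 0 genes without Mid 1, Mid 2, Mid 3, Mid 4, Early 1 or Early 4, where 1604 to 2131 genes had an unadjusted p under 0.05, and it called 337 genes without Early 2 and 589 without Early 3. It also called 0 genes in a fit to the 8 libraries alone, with 2183 at an unadjusted p under 0.05. DESeq2's Wald test on all 16 libraries called 1006. Every call below shares this limit, so the values of single libraries are given beside the tests.

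The libraries also differed in total counts, in the share of the genes with the most counts and in the non-coding RNA roX1. Of these, only the share of the genes with the most counts separated the stages. Total counts were 20693390 to 26978468 in HSD Mid libraries and 18641338 to 26314288 in HSD Early libraries, and the 20 genes with the most counts took 10.96% to 15.80% of the counts in HSD Mid against 18.93% to 27.11% in HSD Early. Early 1 stood apart: it was the highest HSD Early library for 202 of the 211 genes that fell, and Mid 2 was the lowest HSD Mid library for 185 of them. Early 1 also had little roX1, a non-coding RNA of male cells that coats the X chromosome. The level of roX1 was 1850.3, 1103, 688 and 251 CPM in HSD Mid libraries, against 17.1, 937, 847 and 813 CPM in HSD Early libraries, and Early 1 was also the lowest library for lncRNA:roX2, its partner RNA (0.121 CPM). With roX1 as a covariate, the test called 135 genes, 12 higher and 123 lower.

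The sarcomere fell unevenly. The 13 markers of body-wall muscle summed to 39645, 15685, 37432 and 28508 CPM in HSD Mid libraries, against 168604, 61849.6, 83792 and 90306 CPM in HSD Early libraries, so the highest HSD Mid library lay below the lowest HSD Early one. In bulk tissue, fewer muscle cells and less RNA per muscle cell cannot be told apart. Of 8 thick filament genes tested, 4 fell and 0 rose, against 1.82% and 0.276% of all tested genes. Their median log2 fold change was -1.39, beside -0.06 over all tested genes. Mhc, the single muscle myosin heavy chain gene, had 2526, 660.2, 2463 and 1795 CPM in HSD Mid libraries, against 23144, 6174, 9428 and 8254 CPM in HSD Early libraries (log2 fold change -2.66, SE 0.59, adjusted p = 0.037). Without Early 1 the log2 fold change of Mhc was -2.07. Mlc2, the regulatory light chain, had 6653, 1566, 5336 and 3746 CPM in HSD Mid libraries, against 37414, 12326, 15585 and 19829 CPM in HSD Early libraries (log2 fold change -2.30, SE 0.56, adjusted p = 0.0499). Mlc1, the alkali light chain (-2.17), and Prm, the core protein paramyosin (-1.52), fell as well, whereas bt, the projectin gene, overlapped between the stages (log2 fold change -0.78, SE 0.33, adjusted p = 0.239). The non-muscle light chains sqh and Mlc-c stood at 0.35 and 0.11 and were not called. With roX1 as a covariate, 0 thick filament genes and 1 thin filament gene were called lower.

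Among 13 thin filament genes (median -1.42), 3 fell, against 1.82% of all tested genes, and 0 rose. Of the 13, 9 did not overlap on the lower side, against 6.72% of all tested genes. All 3 genes that fell encode troponin C, the calcium sensor of the thin filament. TpnC47D had 233, 95.5, 255 and 170.3 CPM in HSD Mid libraries, against 2599, 695, 684 and 1213 CPM in HSD Early libraries (log2 fold change -2.78, SE 0.56, adjusted p = 0.036), and -2.19 without Early 1. TpnC25D (-3.09, and -2.07 without Early 1) and TpnC73F (-1.23) fell with it. Act57B, the main larval muscle actin, had 9478, 2436, 10048 and 6525 CPM in HSD Mid libraries, against 44610.0, 15118, 20412 and 22673 CPM in HSD Early libraries, and missed the threshold although the stages did not overlap (log2 fold change -1.85, SE 0.49, adjusted p = 0.0651). The cytoplasmic actins Act5C (-0.03) and Act42A (0.38), which serve every cell, overlapped.

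Of 14 genes listed for the Z-disc and M-line, 2 fell and 1 rose, against 1.82% and 0.276% of all tested genes (median -0.33). The 1 that rose also stands in the muscle attachment list. Obsc, the M-line protein obscurin, had 109, 37.2, 103 and 91.8 CPM in HSD Mid libraries, against 872, 222, 437 and 247 CPM in HSD Early libraries (log2 fold change -2.38, SE 0.53, adjusted p = 0.0371). Mlp60A, a muscle LIM protein, fell too (-2.55). In contrast, sls, the gene of the giant elastic titin-like proteins that span the Z-disc and I-band, had 2458, 1974, 2585 and 2639.9 CPM in HSD Mid libraries, against 3966, 2322, 3662 and 3061 CPM in HSD Early libraries, which overlapped (log2 fold change -0.43, SE 0.28, adjusted p = 0.459). The gene that rose was kon, a transmembrane proteoglycan needed for muscle attachment, with 94.5, 81.4, 66.7 and 86.7 CPM in HSD Mid libraries, against 41.6, 40.0, 67.4 and 47.0 CPM in HSD Early libraries (log2 fold change 0.75, SE 0.18, adjusted p = 0.0465). Early 3 lay inside the range of the HSD Mid libraries for kon.

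Membrane and junction genes moved less. Over all tested genes, 1.82% fell and 0.276% rose. Of 18 calcium handling genes, 1 fell (median 0.08): SERCA, the pump that returns calcium to the sarcoplasmic reticulum, had 1558, 635, 1473 and 1098 CPM in HSD Mid libraries, against 6269.9, 2296, 3399 and 3306 CPM in HSD Early libraries (log2 fold change -1.68, SE 0.36, adjusted p = 0.037). Among 21 attachment genes (median 0.29), kon, already counted above, rose and Pax, the adhesion adaptor paxillin, fell (-1.37). The integrin subunit mys and the talin gene rhea stood at 0.41 and 0.29 and were not called. Of 11 genes of the muscle side of the synapse, GluRIIC, a glutamate receptor subunit, fell (-1.04) and the others were not called (median -0.02). None of 18 myogenic transcription factors was called by edgeR (median 0.05, 1 at an unadjusted p under 0.05, 0 called by DESeq2), and none of 7 dystrophin complex genes (median 0.04, 1 at an unadjusted p under 0.05, 1 called lower by DESeq2).

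**Figure D2:**
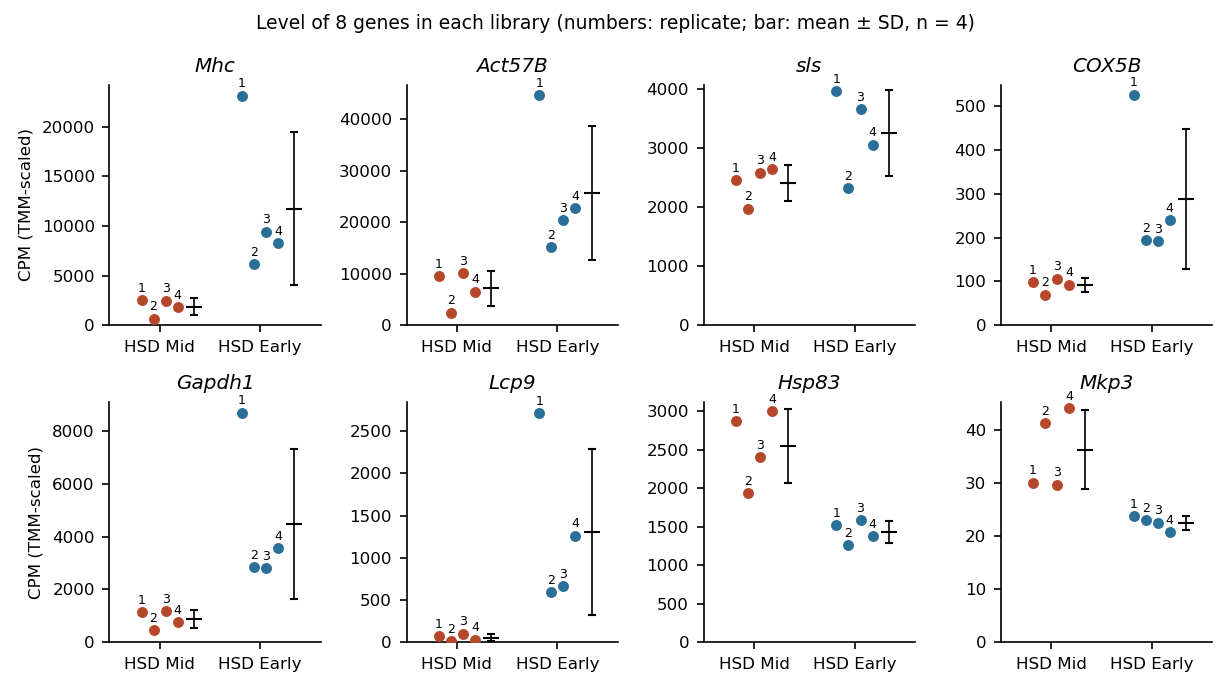
Level in CPM (y axis) of 8 genes in each HSD Mid (red, left) and HSD Early (blue, right) library, with replicate numbers beside the points and the mean ± SD as a bar (n = 4). Early 1 is the highest point for Mhc, Act57B, sls, COX5B, Gapdh1 and Lcp9, while Hsp83 and Mkp3 are higher in every HSD Mid library than in any HSD Early library.

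Energy metabolism held the largest block of genes that fell. Of 117 tested genes of glycolysis, the TCA cycle and the respiratory complexes, 71 fell and 0 rose, against 1.82% and 0.276% of all tested genes, and they made up 33.6% of the genes that fell. The respiratory chain carries electrons through complexes I to IV and drives ATP synthase, complex V. In complex I, the NADH dehydrogenase, 20 of 37 genes fell and all of them had a negative log2 fold change (median -1.11). In complexes II to V, 30 of 44 genes fell (median -1.44). Summed over complexes II to V, the level was 6180.4, 4195, 6540.5 and 5835 CPM in HSD Mid libraries, against 25145, 10055, 10545 and 12829 CPM in HSD Early libraries. Both stages separated in these sums, and Early 1 lay far above the other HSD Early libraries.

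The 30 called genes of complexes II to V lay between -1.65 for COX5B and -0.90 for SdhA, the flavoprotein of succinate dehydrogenase, on the log2 scale. COX5B, a subunit of cytochrome c oxidase (complex IV), had 98.9, 69.6, 106 and 92.9 CPM in HSD Mid libraries, against 527, 194, 192 and 240.0 CPM in HSD Early libraries (log2 fold change -1.65, SE 0.31, adjusted p = 0.0287). ATP synthase subunit beta, ATPsynbeta, which was chosen after its values were seen, had 934, 649, 1082 and 875 CPM in HSD Mid libraries, against 3109.9, 1437, 1538 and 1766 CPM in HSD Early libraries (log2 fold change -1.15, SE 0.25, adjusted p = 0.037). ND-MLRQ, the gene with the largest called fall in the complex I list, had 75.9, 67.3, 85.3 and 81.4 CPM in HSD Mid libraries, against 339, 144, 121 and 209 CPM in HSD Early libraries (log2 fold change -1.39, SE 0.29, adjusted p = 0.0365). The other oxidase subunits named by the rule, COX5A and COX7B, fell by a similar amount (-1.65 and -1.63). Genes of mitochondrial carriers and of the malate-aspartate shuttle, also chosen after their values were seen, fell with them. These were sesB, the ADP/ATP carrier, with 1345, 701, 1172 and 941 CPM in HSD Mid libraries, against 3928, 1968, 2327 and 2488 CPM in HSD Early libraries (log2 fold change -1.36, SE 0.27, adjusted p = 0.0353), the aspartate-glutamate carrier aralar1 (-1.05), and the transaminases Got1 (-1.25) and Got2 (-1.17) of the malate-aspartate shuttle.

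In the TCA cycle, 12 of 22 genes fell and 0 rose, against 1.82% and 0.276% of all tested genes (median -0.99). The citrate synthase gene kdn had 81.0, 65.2, 95.7 and 94.1 CPM in HSD Mid libraries, against 779.7, 180.2, 194 and 233 CPM in HSD Early libraries (log2 fold change -2.04, SE 0.46, adjusted p = 0.0377), and without Early 1 its log2 fold change was -1.26. Mdh2 (-1.55) and Mdh1 (-1.45), the mitochondrial and cytosolic malate dehydrogenases, and SdhD (-1.54), a subunit of succinate dehydrogenase, fell as well. PCB, pyruvate carboxylase, and Idh, a NADP-dependent isocitrate dehydrogenase, stood at 0.30 and -0.21 and were not called.

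In glycolysis, 11 of 18 genes fell and 0 rose, against 1.82% and 0.276% of all tested genes (median -1.57). The symbols Ald, Pgam and PyK written in this list matched no gene in the annotation. The genes that fell ran from phosphoglucose isomerase (Pgi, -1.45) and phosphofructokinase (Pfk, -1.54) at the top of the pathway to enolase (Eno, -1.91) near its end. Gapdh1, a glyceraldehyde-3-phosphate dehydrogenase, had 1132, 463, 1179 and 774 CPM in HSD Mid libraries, against 8681, 2835, 2794 and 3558 CPM in HSD Early libraries (log2 fold change -2.33, SE 0.44, adjusted p = 0.0287). Gapdh1 and its close copy Gapdh2 (-2.20, and -1.54 without Early 1) could share reads, which was not tested. Ldh, which makes lactate from pyruvate, had 141, 214, 158 and 200.2 CPM in HSD Mid libraries, against 2093, 371, 414 and 568 CPM in HSD Early libraries (log2 fold change -2.27, SE 0.50, adjusted p = 0.037). Early 1 was far above the others for Ldh, and the log2 fold change was -1.33 without it. Hex-A, the main hexokinase, and Treh, the trehalase that releases glucose from the blood sugar trehalose, overlapped (-0.32 and -0.20).

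In lipid metabolism, proline metabolism and amino acid transport edgeR called no gene. Of 19 genes of lipid synthesis and breakdown, none was called by edgeR (median 0.14, 2 at an unadjusted p under 0.05, 1 called lower by DESeq2). The most abundant of these, Desat1, a fatty acid desaturase, stood at 0.24 (SE 0.24). None of 13 proline metabolism genes (median -0.15, 2 at an unadjusted p under 0.05, 2 called lower by DESeq2) and none of 24 amino acid transporters (median 0.02, 4 at an unadjusted p under 0.05, 1 called lower by DESeq2) was called by edgeR. The transporters that the study examined in tumours were among them. The SLC36-family transporter path had 165, 135, 82.1 and 176 CPM in HSD Mid libraries, against 96.8, 70.6, 107 and 79.8 CPM in HSD Early libraries, which overlapped (log2 fold change 0.65, SE 0.25, adjusted p = 0.192). CG1139, listed as acs in the annotation, had 33.3, 183, 36.3 and 21.6 CPM in HSD Mid libraries, against 57.3, 83.3, 50.6 and 91.5 CPM in HSD Early libraries (log2 fold change -0.05, SE 0.60, adjusted p = 0.974), and the stages overlapped, with Mid 2 far above the other libraries. Without Mid 2 the log2 fold change of acs was -1.13.

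Genes of the ribosome had small log2 fold changes in TMM-scaled levels, most of them below 0. The TMM factors were 1.01, 1.14, 0.988 and 1.04 in HSD Mid libraries, against 0.629, 0.930, 0.830 and 0.818 in HSD Early libraries. A lower factor raises the CPM of a library. Falls of this size therefore hold for the scaled levels and need not hold for the plain share of counts. Of 85 cytosolic ribosomal protein genes, 0 were called and 81 had a negative log2 fold change (median -0.33). The stages did not overlap for 30 of the 85 on the lower side, against 6.72% of all tested genes. Of the 85 genes, 25 had an unadjusted p under 0.05, and DESeq2's Wald test called 6 lower. Their summed level was 124369, 107050.0, 126136 and 119750.0 CPM in HSD Mid libraries, against 173551, 125760.0, 137157 and 156687 CPM in HSD Early libraries, and Mid 3 lay just above Early 2. Of 72 mitochondrial ribosomal protein genes, 2 fell (mRpS23, -0.82, and mRpL4, -0.69), against 1.82% of all tested genes. All 72 had a negative log2 fold change (median -0.51). The stages did not overlap for 24 of them on the lower side, 40 had an unadjusted p under 0.05 and DESeq2 called 18 lower. Genes of protein breakdown lay near 0 or slightly above. None of 32 proteasome subunits (median 0.14, 0 at an unadjusted p under 0.05, 0 called by DESeq2), none of 30 autophagy genes (median 0.15, 3 at an unadjusted p under 0.05, 1 called by DESeq2) and none of 11 FOXO targets and atrophy genes (median 0.45, 2 at an unadjusted p under 0.05, 0 called by DESeq2) was called. Thor, the translation repressor 4E-BP and the most abundant FOXO target, stood at 0.20 (SE 0.24). The symbols Fbxo32, Mafbx, Murf and InR of this list matched no gene in the annotation. They are therefore not among the 11, and their levels were not examined.

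**Figure D3:**
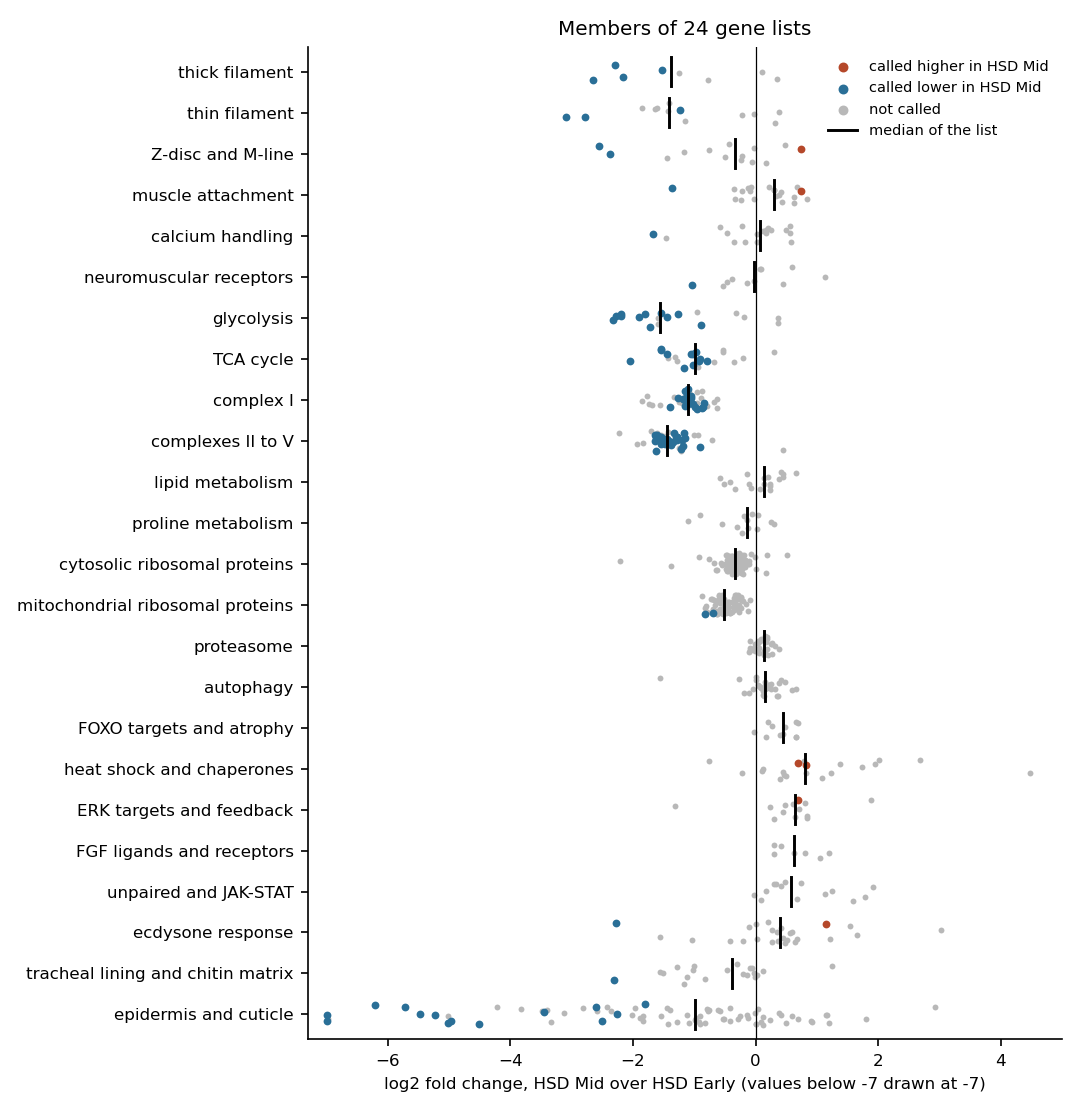
Each point is a tested member of 1 of 24 gene lists (rows), placed by its log2 fold change of HSD Mid over HSD Early on the x axis, with called genes in colour and the median of the list as a black line. Glycolysis, the TCA cycle and the respiratory complexes sit left of 0 almost as a whole, the sarcomere lists spread from below −2 to above 0, and heat shock genes and ERK targets sit mostly right of 0. The 2 members drawn at −7 are Lcp65Ab2 and Cpr47Eg.

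Chaperone genes went the other way. Of 20 heat shock and chaperone genes, 2 rose, against 0.276% of all tested genes, and 0 fell. Of the 20, 8 did not overlap on the higher side, against 4.26% of all tested genes, and the median was 0.81. Hsp83, the fly Hsp90, which helps fold kinases, receptors and myosin, had 2867, 1938, 2400.5 and 2993 CPM in HSD Mid libraries, against 1517, 1261, 1584 and 1374 CPM in HSD Early libraries (log2 fold change 0.83, SE 0.19, adjusted p = 0.0372). DnaJ-1, an Hsp40 cochaperone, had 103, 114, 139 and 128 CPM in HSD Mid libraries, against 68.3, 75.1, 84.4 and 72.4 CPM in HSD Early libraries (log2 fold change 0.69, SE 0.15, adjusted p = 0.0372). Every HSD Mid library was above every HSD Early library for both genes. The inducible Hsp70 genes had positive values that varied widely between libraries and were not called, such as Hsp70Bb with 100.3, 66.4, 79.3 and 136 CPM in HSD Mid libraries, against 51.9, 11.5, 29.9 and 1.97 CPM in HSD Early libraries (log2 fold change 2.01, and 2.76 without Early 1, adjusted p = 0.164). Hsp70Bb was chosen after its values were seen, and near-identical Hsp70 copies may have split reads between them. The muscle small heat shock protein l(2)efl stood at -0.75 and was not called.

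The study asked about fibroblast growth factor (FGF) signalling through ERK in muscle, and genes of that pathway were examined next. Receptor tyrosine kinases activate Ras, Raf and ERK, and ERK in turn raises genes that damp the pathway. Of 13 ERK targets and feedback genes, 1 rose and 5 did not overlap on the higher side, against 0.276% and 4.26% of all tested genes. Of the 13, 12 had a positive log2 fold change (median 0.64). The gene that rose was Mkp3, a phosphatase that inactivates ERK, with 30.1, 41.2, 29.7 and 44.1 CPM in HSD Mid libraries, against 23.8, 23.01, 22.6 and 20.7 CPM in HSD Early libraries (log2 fold change 0.69, SE 0.15, adjusted p = 0.037). The transcription factor genes pnt (0.84, adjusted p = 0.0558) and aop (0.83, adjusted p = 0.0813) missed the threshold; both were chosen after their values were seen.

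None of 7 genes of FGF ligands, receptors and cofactors was called by edgeR (median 0.62, 5 at an unadjusted p under 0.05, 2 called by DESeq2). The symbol btl, the receptor gene for bnl that the study activated in muscle, matched no gene in the annotation. It is therefore not among the 7, and its level was not examined. The ligand pyr had 131, 76.9, 63.8 and 88.1 CPM in HSD Mid libraries, against 42.05, 44.2, 78.8 and 40.1 CPM in HSD Early libraries (log2 fold change 0.81, SE 0.29, adjusted p = 0.163), and Early 3 lay inside the range of HSD Mid. The ligand ths had 4.10, 6.83, 6.43 and 6.23 CPM in HSD Mid libraries, against 2.24, 2.93, 1.81 and 3.34 CPM in HSD Early libraries, which did not overlap (log2 fold change 1.19, SE 0.41, adjusted p = 0.15). The ligand gene bnl, the fly branchless FGF, stood at 0.62 (SE 0.32) and the receptor gene htl at 0.42 (SE 0.19), with overlapping libraries. None of 17 genes of the Ras and MAPK cascade was called (median 0.36, 5 at an unadjusted p under 0.05, 2 called by DESeq2), with Ras85D, the gene of Ras1, at 0.22 and Csk at 0.54. Among 14 JAK-STAT genes none was called (median 0.58, 6 at an unadjusted p under 0.05, 1 called by DESeq2), and the most abundant, Stat92E, the STAT factor itself, stood at 0.08.

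Outside these pathways, dl, the gene of the NF-kappaB factor Dorsal of the Toll pathway, rose, with 222, 198, 176 and 208 CPM in HSD Mid libraries, against 87.5, 123, 154 and 119 CPM in HSD Early libraries (log2 fold change 0.73, SE 0.15, adjusted p = 0.037). It was the 1 called gene among 31 immune recognition and signalling genes (median 0.09). That is 3.23% of them, against 2.09% of all tested genes called in either direction. The ecdysone response is the moulting hormone's target programme. Of its 26 tested genes, 1 was called higher and 1 lower, against 0.276% and 1.82% of all tested genes. Blimp-1 rose and Ldh fell, and the median of the 26 was 0.39. Blimp-1, a repressor induced by ecdysone, had 14.8, 19.7, 9.52 and 11.3 CPM in HSD Mid libraries, against 5.14, 5.82, 7.56 and 6.36 CPM in HSD Early libraries (log2 fold change 1.15, SE 0.27, adjusted p = 0.0445).

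The largest rise was in a non-coding RNA. The non-coding RNA lncRNA:CR43144 had 5.91, 19.7, 4.55 and 12.3 CPM in HSD Mid libraries, against 2.42, 1.53, 1.75 and 2.43 CPM in HSD Early libraries (log2 fold change 2.39, SE 0.43, adjusted p = 0.0287). Nrt, a cell adhesion protein of neurons and epithelia, had 10.6, 15.3, 13.5 and 45.1 CPM in HSD Mid libraries, against 5.26, 7.79, 7.24 and 5.83 CPM in HSD Early libraries (log2 fold change 1.69, SE 0.41, adjusted p = 0.0474). The level in Mid 4 was far above the others, and without that library the log2 fold change of Nrt was 1.01. The gap junction gene shakB had 52.7, 58.7, 38.6 and 50.5 CPM in HSD Mid libraries, against 23.5, 23.1, 25.7 and 15.5 CPM in HSD Early libraries (log2 fold change 1.19, SE 0.29, adjusted p = 0.0495), and the semaphorin receptor gene PlexB stood at 0.89. Of the 10 largest rises, the others were Blimp-1, CG42588 (1.08), CG43867 (0.90), Lap1 (0.87) and 2 genes without a symbol in the annotation, FBgn0261548 and FBgn0010812. FBgn0261548 averaged 154 CPM in HSD Mid and 78.8 CPM in HSD Early libraries, and FBgn0010812 averaged 136 CPM in HSD Mid and 74.5 CPM in HSD Early libraries. Of 13 nervous system markers, 13 had a positive log2 fold change and 0 were called by edgeR (median 0.66, 2 at an unadjusted p under 0.05, 2 called by DESeq2), with summed levels of 207 to 323 CPM in HSD Mid libraries, against 152 to 195 CPM in HSD Early libraries. Their part in the rises of Nrt and shakB was not tested.

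The largest falls were in cuticle genes. Larval cuticle proteins are secreted by the epidermis and bind chitin in the body covering that muscles pull on. Of 77 tested genes of epidermis and cuticle (median -0.996), 14 fell and 31 did not overlap on the lower side, against 1.82% and 6.72% of all tested genes. None of the 77 genes rose. Their summed level was 29065, 30624, 54993 and 34680.2 CPM in HSD Mid libraries, against 182906, 74874, 80076 and 112753 CPM in HSD Early libraries. Of the defining markers, Lcp3 had 1622, 76.0, 2551 and 1692 CPM in HSD Mid libraries, against 74666, 7300.1, 11014 and 17405 CPM in HSD Early libraries (adjusted p = 0.07), while Lcp1 overlapped between the stages (-1.09). The log2 fold change of Lcp3 was -4.22, and -3.02 without Early 1. The HSD Early libraries ranked alike by their cuticle and muscle sums while the HSD Mid libraries did not, and the part of the epidermal signal in the falls of muscle and energy genes was not tested.

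Lcp9 and Cpr47Ec, which were chosen after their values were seen, show the size of these changes. Lcp9 had 77.8, 14.7, 105 and 31.5 CPM in HSD Mid libraries, against 2712, 595, 669 and 1264 CPM in HSD Early libraries (log2 fold change -4.51, SE 0.84, adjusted p = 0.0287). Cpr47Ec had 17.6, 3.23, 62.0 and 30.1 CPM in HSD Mid libraries, against 2022, 354, 407 and 894 CPM in HSD Early libraries (log2 fold change -5.02, SE 0.85, adjusted p = 0.0287). Without Early 1 the values were -3.87 for Lcp9 and -4.33 for Cpr47Ec. Other falls rested more on 1 library. Cpr47Eg had 0.441, 0.127, 0.188 and 0.285 CPM in HSD Mid libraries, against 382, 1.23, 1.23 and 7.34 CPM in HSD Early libraries (log2 fold change -8.53, SE 1.88, adjusted p = 0.037), and without Early 1 it stood at -3.64. Lcp65Ab2 had 0 counts in every HSD Mid library, against 40.5, 1.18, 145 and 17.4 CPM in HSD Early libraries. Its mean was at least 1714-fold lower in HSD Mid, against a floor of 3 counts over the group, and at least 663-fold lower without Early 3, the library with the most. Lcp65Ab2 has a near-identical neighbour gene, as do Lcp65Ag3, Cpr65Ax1 and Cpr67Fa1, which were among the 10 largest falls (-6.21, -5.73 and -5.23), so their reads may be split. CG11350 (-6.76), CG13705 (-6.45), CG15515 (-5.59) and Cpr78Cc (-5.47) completed these falls together with Obp56e. Without Early 1 the log2 fold changes were -5.95 for CG11350, -5.41 for CG13705, -4.73 for CG15515, -4.52 for Lcp65Ag3, -4.78 for Cpr65Ax1 and -4.24 for Cpr67Fa1. Without Mid 3 they were -8.53 for CG11350, -6.29 for CG15515, -7.25 for Cpr65Ax1 and -5.71 for Cpr47Ec.

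Of 20 genes of the tracheal lining and chitin matrix (median -0.39), 1 fell and 7 did not overlap on the lower side, against 1.82% and 6.72% of all tested genes. DESeq2 called 7 of the 20 lower. The summed level of the 20 was 2805 to 5774 CPM in HSD Mid libraries, against 5909 to 11939 CPM in HSD Early libraries, so the stages did not overlap. The gene that fell was obst-E, a chitin-binding protein of the larval cuticle, with 189, 50.2, 370.4 and 290.0 CPM in HSD Mid libraries, against 2180.4, 550.1, 689 and 1040.3 CPM in HSD Early libraries (log2 fold change -2.31, SE 0.52, adjusted p = 0.0372). Of 16 odorant-binding protein genes, 2 fell (median -0.96): Obp83g (-1.82) and Obp56e. Obp56e had 3.31, 2.72, 0.978 and 1.10 CPM in HSD Mid libraries, against 419.8, 14.6, 8.92 and 26.9 CPM in HSD Early libraries (log2 fold change -5.86, SE 1.23, adjusted p = 0.037), and without Early 1 it stood at -3.01.

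**Figure D4:**
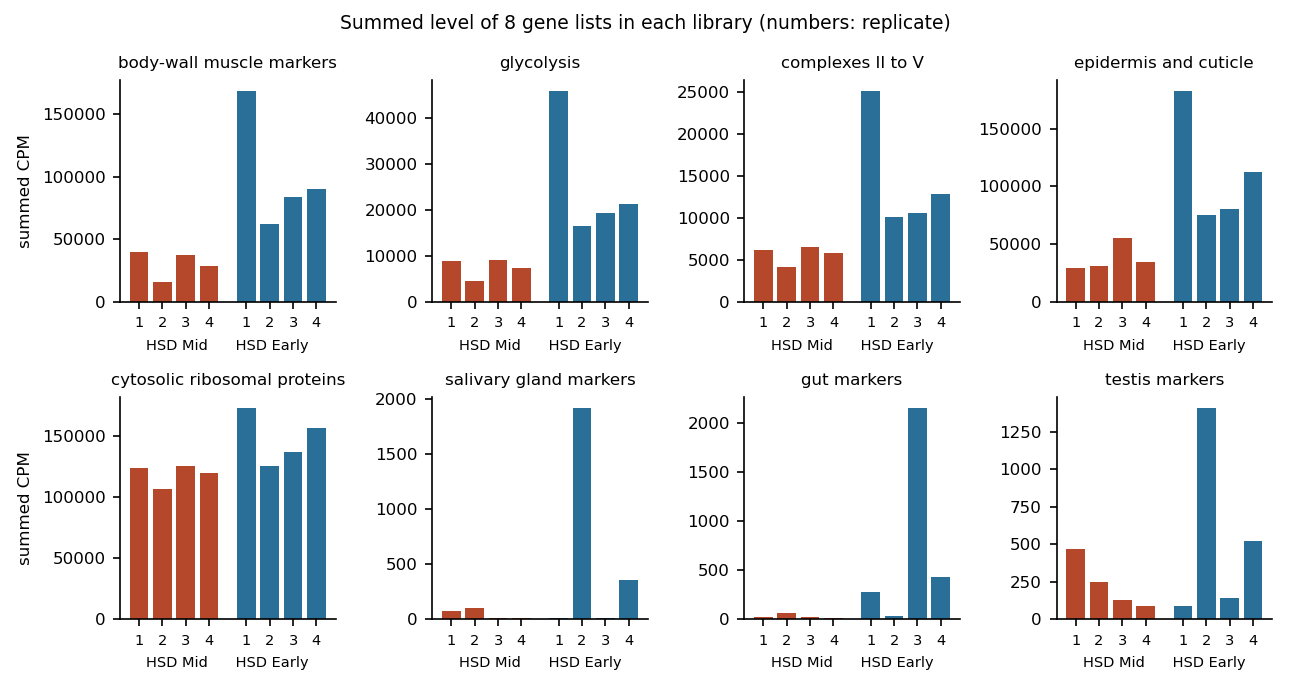
Summed CPM (y axis) of 8 gene lists in each library, with HSD Mid (red) left of HSD Early (blue) and replicate numbers on the x axis. Muscle markers, glycolysis, complexes II to V and cuticle are lower in every HSD Mid library than in any HSD Early library, whereas salivary gland, gut and testis markers are highest in Early 2 or Early 3.

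Markers of other organs varied from library to library. Salivary gland markers summed to 74.5, 99.6, 12.6 and 8.19 CPM in HSD Mid libraries, against 10.4, 1922, 8.53 and 357 CPM in HSD Early libraries. Gut markers summed to 26.02, 59.4, 21.3 and 7.51 CPM in HSD Mid libraries, against 276, 27.8, 2156 and 425 CPM in HSD Early libraries. Testis markers summed to 469, 251, 129.5 and 86.1 CPM in HSD Mid libraries, against 86.5, 1412, 144 and 524 CPM in HSD Early libraries. These lists had low medians (-6.02, -3.58 and -1.51) but no called gene among 11, 26 and 31 tested, and 1 library, Early 2 or Early 3, carried most of each sum in HSD Early. The glue gene Sgs3, a defining marker of salivary gland, had 0.132, 0.0425, 0.263 and 0 CPM in HSD Mid libraries, against 0, 183, 0 and 43.9 CPM in HSD Early libraries. Genes at an unadjusted p under 0.05 numbered 7, 13 and 1, and DESeq2 called 7, 9 and 0. Early 1, the library with the most muscle RNA, was low in salivary gland and testis markers. For fat body (-0.22), haemocytes (0.44) and Malpighian tubules (0.08) no gene was called among 12, 15 and 18 tested, with 1, 3 and 2 at an unadjusted p under 0.05. In the same order, DESeq2 called 1 lower, 2 higher and 1 lower.

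The other groups of the series place these levels. Body-wall muscle markers summed to 34362 ± 13778 CPM in CD, 101138 ± 46596 CPM in HSD Early, 30318 ± 10878 CPM in HSD Mid and 13119 ± 5045 CPM in HSD Late libraries (mean ± SD, n = 4 each). Mhc averaged 3056 ± 1973 CPM in CD, 11750.1 ± 7714 CPM in HSD Early, 1861 ± 866 CPM in HSD Mid and 877 ± 423 CPM in HSD Late libraries. By these means HSD Early was the highest group of the series, and HSD Mid lay between HSD Late and CD. Complexes II to V summed to 6546 ± 1578 CPM in CD, 14644 ± 7105 CPM in HSD Early, 5688 ± 1036 CPM in HSD Mid and 4369 ± 528 CPM in HSD Late libraries. Hsp83 averaged 1415 ± 191 CPM in CD, 1434 ± 145 CPM in HSD Early, 2549.8 ± 481 CPM in HSD Mid and 3820.0 ± 768 CPM in HSD Late libraries. Mkp3 averaged 23.6 ± 3.78 CPM in CD, 22.5 ± 1.31 CPM in HSD Early, 36.3 ± 7.48 CPM in HSD Mid and 54.0 ± 4.24 CPM in HSD Late libraries. Unlike Hsp83 and Mkp3, some other genes that rose were higher in CD than in HSD Early. DnaJ-1 averaged 125 ± 28.5 CPM in CD, 75.1 ± 6.84 CPM in HSD Early and 121 ± 15.7 CPM in HSD Mid libraries. Nrt averaged 18.1 ± 5.75 CPM in CD, 6.53 ± 1.18 CPM in HSD Early and 21.1 ± 16.1 CPM in HSD Mid libraries. Comparisons between these groups share libraries, so the levels are given side by side without a test.

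**Figure D5:**
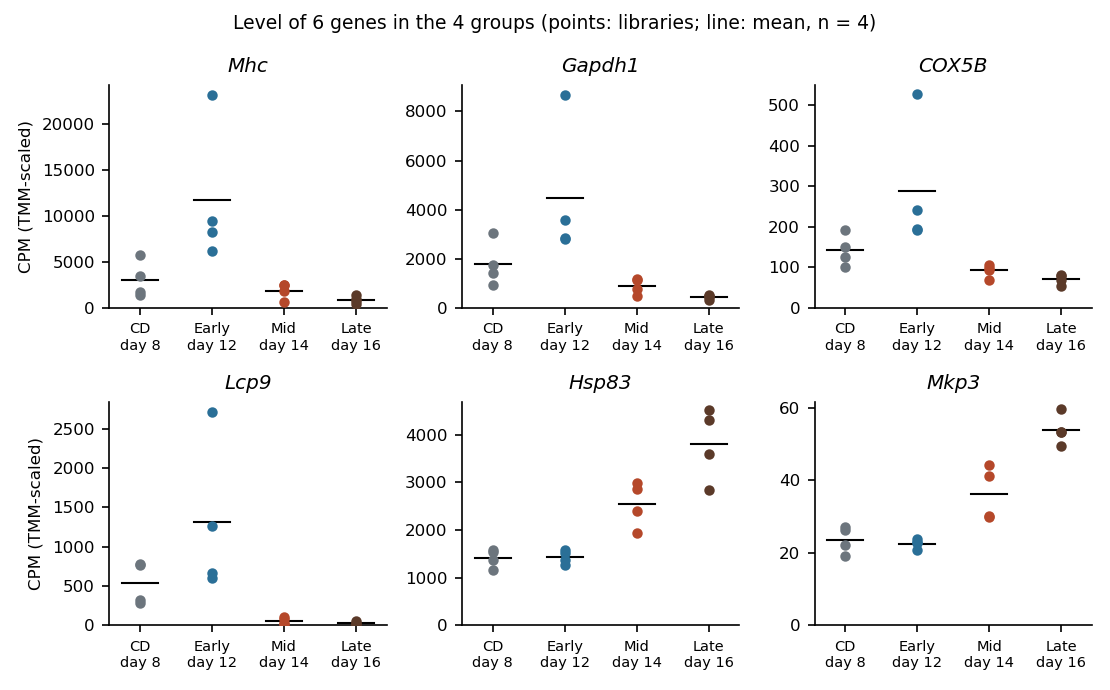
Level in CPM (y axis) of 6 genes in the 4 groups of the series in order of day (x axis), with a point for each library and a line at the mean (n = 4). Mhc, Gapdh1, COX5B and Lcp9 are highest in HSD Early and lower in HSD Mid, while Hsp83 and Mkp3 are higher in HSD Mid than in HSD Early and highest in HSD Late.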

How the data were processed

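The deposited table held raw read counts per gene and library. The authors sequenced stranded poly(A) RNA libraries, and their processing notes name CASAVA 1.8.4, TopHat2 2.0.11, featureCounts and the dm3 build. The study names Trim Galore for trimming, and whether all of these reads were trimmed is not given in the sources used here. The counting strand is not given in the sources used here, so overlapping antisense genes cannot be told apart. Gene symbols came from the annotation for 95.7% of 15682 identifiers.

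Counts of all 16 libraries were fitted with edgeR 4.0.16 in R 4.3.3 (filterByExpr, TMM scaling, quasi-likelihood F-test of HSD Mid minus HSD Early, Benjamini-Hochberg adjustment over all 11607 tested genes, threshold 0.05). DESeq2 1.42.0, other scalings, filters, covariates and leaving out libraries were alternatives. CPM were TMM-scaled. Means carry SDs over 4 libraries.

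Of 1023 symbols written in 64 lists, 931 matched a gene, and some genes stand in more than 1 list. Named genes were the 10 largest called rises and falls with a mean of at least 10 CPM in the higher stage and no overlap, up to 4 called members of a list or else its 2 most abundant genes, and 13 genes fixed by name; all others were chosen after their values were seen, including bt, sqh, Mlc-c, Act5C, Act42A, mys, rhea, PCB, Idh, Pgi, Pfk, Eno, Hex-A, Treh, l(2)efl, Lcp1 and Lcp3. The comparison and the lists were chosen with earlier results of these data known.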

Additional observations from a re-analysis of the deposited data

Results flagged for a closer look

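In 11 of 90 groups of 4 libraries tested, 1 library lay further from the others than Dixon's 95% critical value allows. Chance gives about 1 in 20 such groups.

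Early 1 was the far library in most of them. It held 527 CPM of COX5B, 8681 CPM of Gapdh1, 2093 CPM of Ldh, 779.7 CPM of kdn, 382 CPM of Cpr47Eg, 419.8 CPM of Obp56e and a sum of 46006 CPM over glycolysis genes, each above the other HSD Early libraries. It was the lowest of the HSD Early libraries for roX1, with 17.1 CPM. The other cases were pyr in Early 3 (78.8 CPM), acs in Mid 2 (183 CPM) and Nrt in Mid 4 (45.1 CPM). The other libraries' values stand beside each gene in the report.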

How the results depend on the processing

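The count of called genes depended on the libraries more than on the scaling. It was 243 as reported (32 higher, 211 lower), 289 with DESeq2 size factors, 349 with upper-quartile scaling (61 higher), 207 with no filter on low counts, 520 with a mean of at least 10 CPM (114 higher, 406 lower), 223 without the 20 genes with the most counts (52 higher) and 1006 by DESeq2's Wald test (312 higher, 694 lower). A roX1 covariate gave 135 (12 higher, 123 lower). edgeR called 0 higher and 0 lower in the 8 libraries alone (2183 at an unadjusted p under 0.05) and 0 without Early 1 and Mid 2 together (1198), an alternative chosen after seeing the data. Leaving out 1 library gave 0 to 589 calls, 0 to 296 higher and 0 to 306 lower. The share of called genes that were higher, 13.2% as reported, was 23.3% without the 20 genes with the most counts, 31.0% by DESeq2 and 50.3% without Early 3. In each of these settings, every one of the 243 genes that could be fitted kept its direction. This adds little, since these genes were chosen by the test on the same libraries and 238 of them did not overlap. Of 152 genes, those named by the rule and some others reported here, 62 lost their call in each of the settings without calls. With the roX1 covariate 29 did, and at most 11 in the others. No gene called in either fit changed sign. Among genes called in neither fit, 1 to 15 changed sign per setting. These numbered 9 with the roX1 covariate, 10 without Early 1 and 15 without Early 1 and Mid 2. The cause of these changes was not tested. In the roX1 fit, 12 genes of complex I, 28 of complexes II to V, 8 of the TCA cycle and 7 of glycolysis fell, and 0 of the thick filament. With the replicate number as a block, 267 genes were called. The numbers did not pair the libraries, since deviations of the same number correlated at -0.58, 0.43, 0.15 and -0.61. Total counts ran from 9666672 to 28698585 over the 16 libraries of the fit, and 4 libraries per stage with a wide spread limit the precision.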

Other observations

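Of 33 glutathione S-transferases, which detoxify reactive compounds, 1 fell, against 1.82% of all tested genes. It was gfzf (-0.69, adjusted p = 0.0392), and the median of the 33 was -0.33. In this group 11 genes had an unadjusted p under 0.05 and DESeq2 called 8 lower, and summed levels were 2428 to 2873 CPM in HSD Mid libraries, against 3163 to 4450 CPM in HSD Early libraries. edgeR called 0 of 74 cytochrome P450 genes (4 at an unadjusted p under 0.05, 1 by DESeq2) and 0 of 9 antimicrobial peptide genes (0 and 0). The 13 genes of basement membrane and matrix proteolysis had a median log2 fold change of 0.60, with 0 called by edgeR and 5 at an unadjusted p under 0.05. For these, DESeq2 called 4 higher and 1 lower. The 19 JNK and stress targets had a median of 0.42, with 0 called by edgeR and 12 at an unadjusted p under 0.05. For these, DESeq2 called 3 higher and 2 lower.

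Of the 32 genes that rose, 26 stood in none of the lists, as did 108 of the 211 that fell. The mitochondrial phosphate carrier gene Mpcp1 (-3.01, and -2.33 without Early 1) and the mitochondrial superoxide dismutase gene Sod2 (-1.10), both chosen after their values were seen, were among the falls.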
